A study of Mus musculus with 40 samples.

Results

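The 39 genes described here are interferon-response and antigen-presentation genes of the mouse, taken by symbol from the 24060 gene symbols of the count table. They hold 2 cytosolic RNA sensors, 4 transcription factors, 17 antiviral effectors, 6 interferon-inducible GTPases, the chemokine Cxcl10 and 9 genes of antigen presentation by class I molecules. All 39 were in the table, and all 39 passed the filter on low counts in each comparison. In the bulk WT libraries 35 of them had at least 10 counts in all 4 libraries, and Isg15, Oas1a, Mx1 and Cxcl10 did not.

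RNA was measured in 40 striatal libraries, 4 per group, in which RiboTag AAV was used to tag ribosomes with HA-labelled Rpl22 so that ribosome-bound RNA of the infected cells could be immunoprecipitated. The input is RNA from the cleared lysate of the same tissue, and the IP is the RNA pulled down with anti-HA. The astrocyte cohort (input and IP) and the neuron cohort (input and IP) were C57/BL6NTac mice injected at 6 weeks of age, with a virus that carried the astrocyte promoter gfaABC1D or the neuronal promoter hSyn1. The SAPAP3 cohort held WT mice (C57/BL6J) and mice lacking Dlgap3, the gene for SAPAP3 (C57/BL6J-Dlgap3 KO), injected at 4.5 months, with input and IP of each. The labels do not name the promoter used in that cohort. WT and SAPAP3 KO bulk striatum came from mice with no injection and no IP, both labelled C57/BL6NTac, with no age given, and 1 animal number stands on a WT and on a KO library. Input and IP share their animals in the astrocyte and SAPAP3 cohorts, whereas the labels give the neuron inputs and IPs different animal numbers. Libraries held 23438112 to 84109800 counts.

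Single libraries stood apart for the members. SAPAP3 WT replicate 3 was the lowest of its group for 39 of 39 members in both input and IP. WT bulk replicate 3 was the highest of the WT bulk libraries for 33 of 39, and it also stood apart in Xist, a transcript of female cells, at 197 CPM against 0 to 2.36 CPM.

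Cell type markers were read in the IPs before the members. All 10 astrocyte markers were called higher in the astrocyte IP than in its input (median log2 fold change 3.02), and all 10 were also called higher in the SAPAP3 cohort IPs (2.30 in WT and 2.39 in KO). In the neuron IP, 3 of 10 neuron markers were called higher (median 0.75) and no astrocyte marker was (median -0.59). Microglial markers were called lower in 10 of 10 in each IP, with a median of -5.45 in the astrocyte IP and -4.36 in the neuron IP, and endothelial markers in 10 of 10 and 9 of 10. Not all other cell types fell. Summed ependymal markers averaged 30.0 CPM in the astrocyte cohort inputs and 104 CPM in the IPs, and 27.4 and 113 CPM in SAPAP3 WT. Summed oligodendrocyte markers averaged 6159 and 4469 CPM in the astrocyte cohort, 6374 and 8740 CPM in SAPAP3 WT and 6238 and 1674 CPM in the neuron cohort.

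Interferons are secreted proteins that bind receptors on almost every cell and act through JAK kinases and STAT proteins on a common set of genes. Type I interferons act through a complex that holds Stat2 and Irf9 at promoter elements called ISREs, and interferon gamma acts at GAS elements. The induced genes sense viral RNA, block viral replication, attack vacuoles that hold parasites, attract T cells and load peptides on class I molecules. In healthy brain most of them are expressed at low levels.

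Promoter sequences from RefSeq (GRCm38.p6) were available for 31 of the 39 members, in windows from 250 bases before to 50 bases after the gene start. An ISRE, written as GAAANN followed by GAAA, stood in 16 of these 31 windows (51.6%) against 3.52% of the 27025 windows of all genes, on either strand. A GAS element, written TTCNNNGAA, stood in 8 of 31 (25.8%) against 8.37%, and 20 of 31 (64.5%) held at least one of the motifs against 11.4%. The motif letters are a description and show no binding. The 250 bases before the start are given 5′ to 3′ on the gene's strand for 5 members on which the results below turn, with the motif letters in capitals. They lie at chr5:92348890-92349139 (minus strand, Cxcl10), chr11:58199306-58199555 (plus strand, Igtp), chr3:142620413-142620662 (plus strand, Gbp2), chr2:122147437-122147686 (plus strand, B2m) and chr17:34187306-34187555 (plus strand, Tap1).
Cxcl10: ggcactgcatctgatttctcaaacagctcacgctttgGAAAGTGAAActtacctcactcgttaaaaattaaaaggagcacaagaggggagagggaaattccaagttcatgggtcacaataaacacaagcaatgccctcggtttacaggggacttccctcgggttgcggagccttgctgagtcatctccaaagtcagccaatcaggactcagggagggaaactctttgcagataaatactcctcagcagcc
Igtp: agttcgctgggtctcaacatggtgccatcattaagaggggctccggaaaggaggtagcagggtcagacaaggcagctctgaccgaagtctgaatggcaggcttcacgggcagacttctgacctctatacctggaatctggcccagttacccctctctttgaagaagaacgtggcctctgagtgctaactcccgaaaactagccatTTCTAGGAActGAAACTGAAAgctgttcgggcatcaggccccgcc
Gbp2: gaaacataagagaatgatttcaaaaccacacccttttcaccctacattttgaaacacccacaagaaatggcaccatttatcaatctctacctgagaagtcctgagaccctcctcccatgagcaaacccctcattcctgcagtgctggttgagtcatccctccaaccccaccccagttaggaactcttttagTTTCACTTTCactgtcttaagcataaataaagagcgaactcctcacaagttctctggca
B2m: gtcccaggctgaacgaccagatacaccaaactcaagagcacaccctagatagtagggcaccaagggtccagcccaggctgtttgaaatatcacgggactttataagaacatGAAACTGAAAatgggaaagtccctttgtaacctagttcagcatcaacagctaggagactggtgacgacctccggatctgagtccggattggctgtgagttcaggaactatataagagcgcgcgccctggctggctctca
Tap1: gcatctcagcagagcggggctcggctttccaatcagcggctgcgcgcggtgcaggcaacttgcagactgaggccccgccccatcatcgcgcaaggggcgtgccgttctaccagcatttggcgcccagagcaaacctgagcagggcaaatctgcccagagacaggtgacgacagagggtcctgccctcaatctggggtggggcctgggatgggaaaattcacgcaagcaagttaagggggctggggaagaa
The capitals mark an ISRE in Cxcl10 that starts 213 bases before the gene start, a GAS element and an ISRE in Igtp that start 45 and 34 bases before it, an ISRE on the opposite strand in Gbp2 at 59 bases and an ISRE in B2m at 139 bases. Neither motif is in the Tap1 sequence shown. Cxcl10, Igtp, Gbp2 and Tap1 are those with the largest differences between inputs and bulk, leaving out Iigp1 and Nlrc5, which are named without sequence, and B2m is the most abundant member. Tap1 and Psmb9 are transcribed away from each other from starts 226 bases apart. The members lie on 15 chromosomes, with 7 on chromosome 17, 6 on chromosome 11 and 4 on chromosome 3.

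Levels between genes are compared as FPKM, the CPM per kilobase of exon sequence, where CPM is a count per 1000000 counts of the library, without the TMM scaling that the fold changes carry. B2m, the light chain of class I molecules, had the highest mean FPKM of the 39 members in every group, with 85.0 ± 9.09 (SD, n = 4) in WT bulk striatum, 729 ± 277 in the SAPAP3 WT inputs and 1706 ± 571 in the SAPAP3 WT IPs. Its lowest library stood above the highest library of the next member in each group. In WT bulk striatum the next members were Ifi27, a mitochondrial interferon-induced protein, at 10.9 ± 1.78, the class I heavy chain H2-D1 at 8.63 ± 1.79, Tapbp at 7.22 ± 0.722 and H2-K1 at 5.81 ± 1.52, whose ranges overlapped from each to the next. In the SAPAP3 WT inputs the order after B2m was H2-D1 (155 ± 64.3), H2-K1 (114 ± 49.7), Igtp (92.1 ± 48.0) and Gbp2 (57.04 ± 28.6), and these ranges overlapped too. Igtp was at 1.52 ± 0.244 FPKM in WT bulk.

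**Figure D1:**
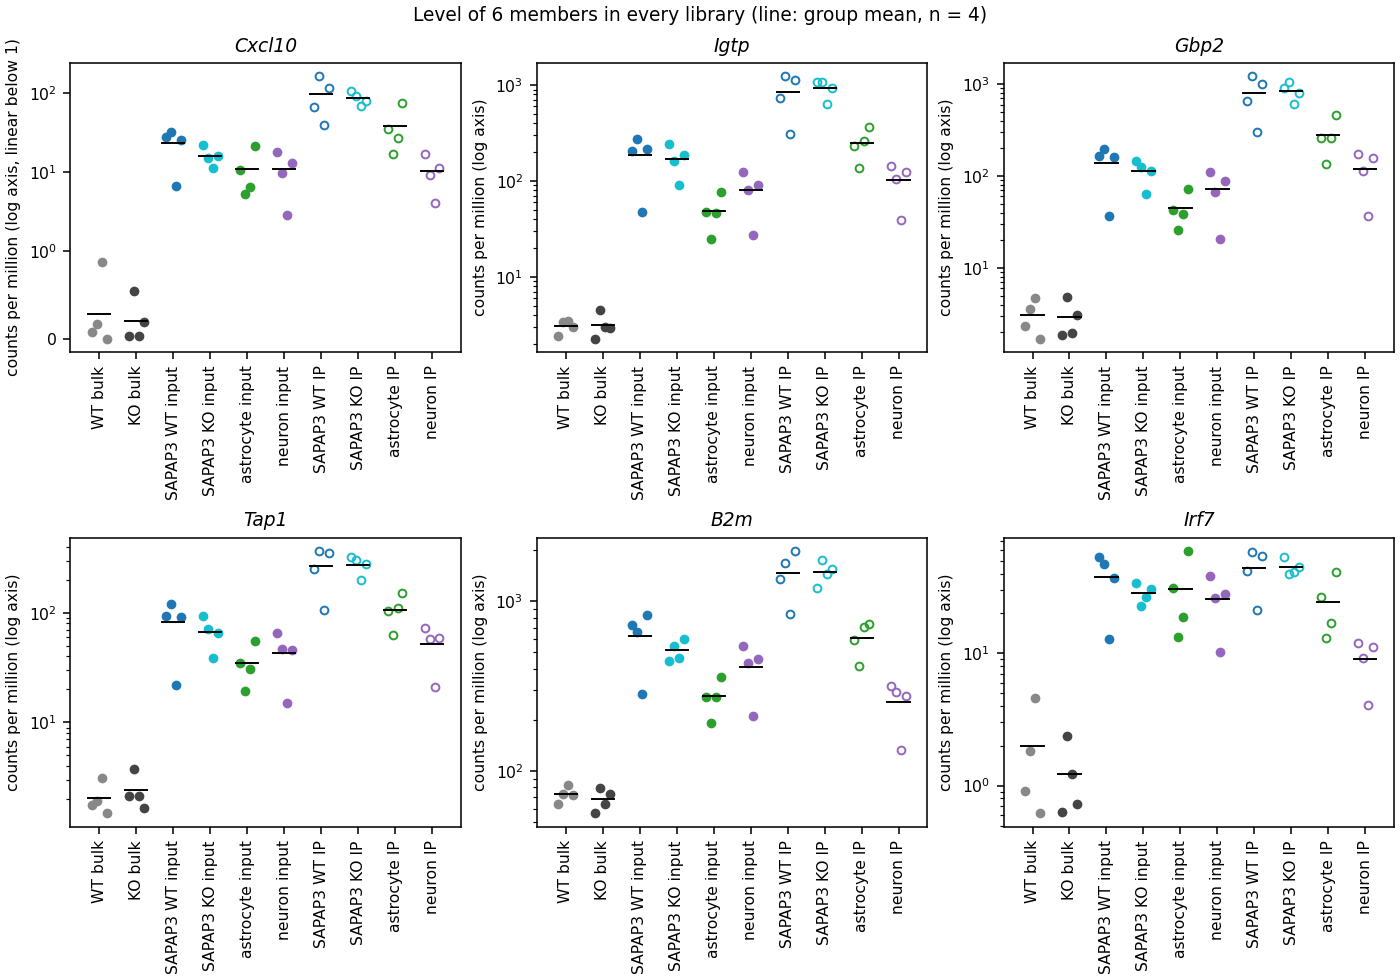
Level (CPM, log axis) of Cxcl10, Igtp, Gbp2, Tap1, B2m and Irf7 in each of the 40 libraries, by group. Each point is 1 library (open for IPs), the bar is the group mean, and the Cxcl10 axis is linear below 1. In the 8 bulk libraries every one of the 6 genes lies under every input library.

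All 39 members were called higher in the SAPAP3 WT inputs than in WT bulk striatum, against 5.12% of the 15865 genes tested. Calls needed an adjusted p under 0.05 (Benjamini-Hochberg, over all genes tested) from the quasi-likelihood fit of edgeR and a log2 fold change above 1 or below -1. The median log2 fold change of the members was 3.98, a median fold of 15.8, against 0.00153 for all genes tested, and the 39 values ran from 1.36 (Ifi27) to 6.51 (Iigp1). In 39 of 39 members the lowest input library was above the highest bulk library, an order found in 15.2% of all genes tested. Virus injection, the clearing of the lysate, the cohort, the depth and the strain label differed together between these groups and cannot be told apart. No age is given for the bulk mice, so a difference in age cannot be told apart either. Xist was at 0 to 2.36 CPM in all WT bulk libraries but replicate 3, and its level in the inputs is not reported here. Whether the sex of the mice differed between these groups was not settled. The astrocyte and neuron cohorts have the strain label of the bulk libraries. In tissue RNA, more cells of a type and more RNA per cell cannot be told apart either.

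Cxcl10, which draws activated T cells and NK cells, was at 0.0798, 0.171, 0.878 and 0 CPM in the 4 WT bulk libraries and at 27.9, 32.4, 6.59 and 25.5 CPM in the SAPAP3 WT inputs. The groups did not overlap, with the third library of each group apart from the others, highest in bulk and lowest among the inputs. The log2 fold change was 6.39 ± 0.86 SE, adjusted p = 0.00163 by edgeR. Without WT bulk replicate 3 it was 8.00. The fold itself, not its log2, also moved by more than 1.5 times without that library for 8 other members: Bst2, Ifi44, Ifit1, Irf7, Isg15, Oas1a, Oasl2 and Usp18, all to a larger difference. For Isg15, a ubiquitin-like modifier, the log2 fold change moved from 4.76 to 5.90.

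The interferon-inducible GTPases, which attack the vacuoles of intracellular parasites, had the largest median of the groups of more than 1 gene (5.03). Iigp1 was at 0.785, 1.60, 2.60 and 0.632 CPM in WT bulk and at 140.2, 188, 32.6 and 163 CPM in the SAPAP3 WT inputs, a log2 fold change of 6.51 ± 0.66 SE, adjusted p = 0.000663. Igtp, of the same immunity-related family, was at 2.41, 3.41, 3.47 and 2.98 CPM in bulk and at 206, 274, 47.7 and 218 CPM in the inputs (5.87 ± 0.52 SE, adjusted p = 0.000599). Both genes were lowest in input replicate 3, which was still far above every bulk library. Gbp2, a guanylate-binding protein, was at 2.31, 3.58, 4.66 and 1.70 CPM in bulk and 167, 194, 37.1 and 161 CPM in the inputs (5.46 ± 0.56 SE, adjusted p = 0.000663), and Irgm1, Gbp3 and Gbp7 had 4.61, 3.74 and 3.38.

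In antigen presentation all 9 genes were called higher, with a median of 4.23. Nlrc5, the transactivator of class I genes, was at 0.572, 0.574, 0.987 and 0.293 CPM in WT bulk and 54.2, 68.2, 13.2 and 50.9 CPM in the inputs (6.22 ± 0.57 SE, adjusted p = 0.000599). Tap1, a chain of the peptide transporter, was at 1.76, 1.91, 3.13 and 1.48 CPM in bulk and 93.8, 120.1, 21.8 and 91.3 CPM in the inputs (5.25 ± 0.53 SE, adjusted p = 0.000663). Its divergent neighbour Psmb9, an immunoproteasome subunit, had 5.04 ± 0.51 SE and the other such subunit, Psmb8, 4.36 ± 0.48 SE. The heavy chains H2-K1 and H2-D1 differed by 4.23 and 4.11. B2m had 63.9, 73.0, 82.9 and 71.9 CPM in bulk and 721, 665, 284 and 831 CPM in the inputs, a difference of 3.04 ± 0.29 SE. The second transporter chain Tap2 differed by 3.01, and Tapbp, which bridges the transporter to class I molecules, by 2.18.

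Among the transcription factors Irf7, which drives type I interferon genes, showed 0.918, 1.82, 4.57 and 0.617 CPM in WT bulk and 53.6, 47.1, 12.9 and 37.2 CPM in the SAPAP3 WT inputs (4.21 ± 0.66 SE, adjusted p = 0.00352). Its bulk libraries were themselves widely spread and highest in replicate 3. Irf1 was at 3.67, 3.07, 3.20 and 3.08 CPM in bulk, a narrow range, and at 61.6, 78.3, 18.1 and 57.5 CPM in the inputs (3.98 ± 0.40 SE, adjusted p = 0.000663). Irf9 and Stat2, partners in the complex that binds ISREs, differed by 2.54 and 1.70. The RNA sensors Ifih1 and Ddx58 differed by 2.18 and 2.39, and Ifih1 was at 7.13, 6.08, 5.30 and 6.99 CPM in bulk against 33.2, 40.9, 16.7 and 30.1 CPM in the inputs.

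The 17 antiviral effectors had a median of 3.87 and a range of 1.36 to 4.92. Oas1a, an oligoadenylate synthetase, led them (4.92 ± 0.57 SE, adjusted p = 0.000897), followed by Isg15 (4.76 ± 0.80 SE) and the dynamin-like GTPase Mx1 (4.40 ± 0.59 SE). Ifit1, which binds foreign RNA, was at 1.36, 3.15, 7.62 and 1.54 CPM in bulk and 75.5, 74.8, 26.2 and 47.3 CPM in the inputs. Bst2, which tethers budding virus to the cell, was at 0.918, 1.24, 3.58 and 0.879 and 32.6, 32.1, 7.75 and 25.0 CPM. Both stood highest in bulk replicate 3 and lowest in input replicate 3. Ifi27, the member that differed least, was at 12.6, 14.8, 17.7 and 12.8 CPM in bulk and 47.0, 47.2, 24.2 and 36.9 CPM in the inputs. Transcripts of Ifit3, Oas1a and Isg15 each have a copy at 95% identity or more elsewhere in the annotation (Ifit3b, Oas1g and AC151275.1), so reads may have been split between them, and RefSeq annotates Mx1 as a transcribed pseudogene.

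The same direction was found for the other inputs. In the SAPAP3 KO inputs against KO bulk, 39 of 39 members were called higher (5.04% of all genes), with a median of 3.81 and no overlap in 39 of 39 (15.9% of all genes). In the astrocyte cohort inputs against WT bulk, 39 of 39 were called higher (6.05% of all genes), with a median of 3.08 and no overlap in 39 of 39 (32.3% of all genes). Gapdh was at 608 to 660 CPM in these inputs, but at 2.53 to 4.22 CPM in WT bulk and 3.31 to 5.94 CPM in the other inputs. Summed astrocyte markers averaged 3875 CPM in these inputs and 6268 CPM in WT bulk. Whether reads were counted alike in this cohort and in bulk was not tested. With library sizes scaled to ribosomal protein genes, which moved the median of all genes in this comparison by -1.78, Ifi27, Ifih1, Ifit2, Stat2, Tapbp, Trim25 and Xaf1 turned negative, all 39 members stayed above the median of all genes and 21 were called higher (1.27% of all genes). In the neuron cohort inputs against WT bulk, 38 of 39 were called higher (4.45% of all genes), with a median of 2.96 and no overlap in 39 of 39 (24.3% of all genes), and Ifi27 missed the fold limit (0.98 ± 0.17 SE, adjusted p = 0.00365). With Xist as a covariate 25 were called there (4.3% of all genes). These last comparisons and that of the SAPAP3 WT inputs share the 4 WT bulk libraries, so the values are given side by side only.

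Cxcl10 differed from bulk by 6.34 in the SAPAP3 KO inputs, 5.27 in those of the astrocyte cohort and 5.26 in those of the neuron cohort. For Iigp1 the values were 6.17, 4.46 and 5.66, and for Nlrc5 5.67, 4.93 and 5.15. For the ISRE-complex gene Stat2 they were 1.51, 1.31 and 1.10, the lower end of the transcription factors in each cohort. Without WT bulk replicate 3 Cxcl10 was at 6.89 and 6.89 in the astrocyte and neuron cohorts, and the same 9 members as above moved by over 1.5 times in fold. Without KO bulk replicate 2 it was at 7.54 in the SAPAP3 KO inputs, and Ifi44, Oas1a and Oasl2 moved likewise, to 5.19, 5.13 and 5.65. Mx1 in the astrocyte cohort inputs moved from 4.40 to 3.63 without input replicate 4.

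**Figure D2:**
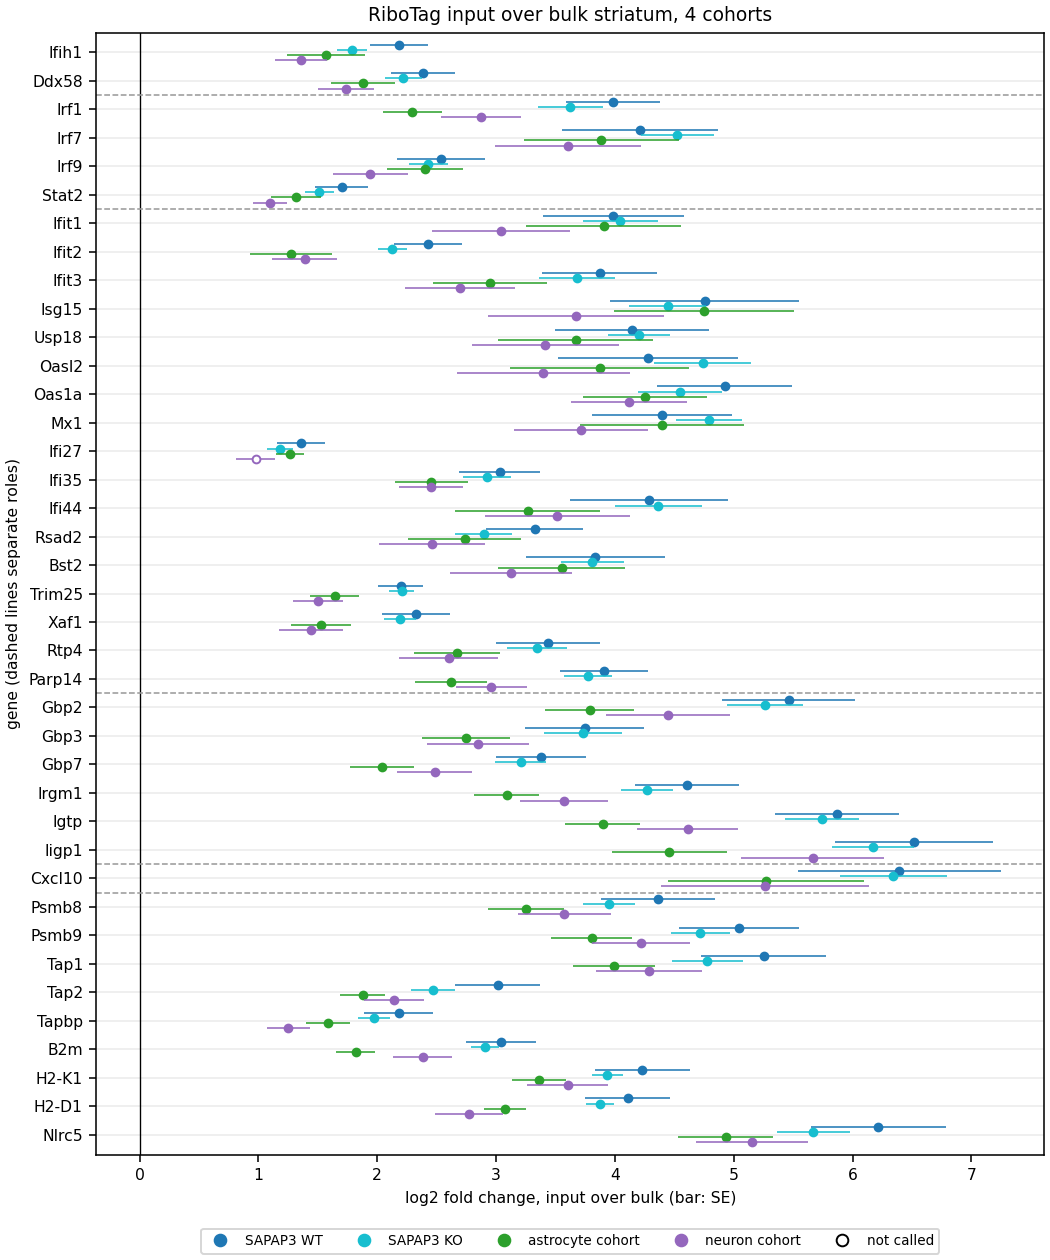
Log2 fold change of the RiboTag inputs over bulk striatum for the 39 members, by role, in the SAPAP3 WT, SAPAP3 KO, astrocyte and neuron cohorts. Points are edgeR estimates (open where not called) and bars are 1 standard error; all points are above 0, from 0.98 for Ifi27 in the neuron cohort to 6.51 for Iigp1 in the SAPAP3 WT cohort, and with scaling to ribosomal protein genes 7 members of the astrocyte cohort were below 0.

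Other genes of the pathway were counted from lists. In the comparison used here, 5.12% of all 15865 genes tested were called higher and 7 genes lower. In the SAPAP3 WT inputs against WT bulk, 11 of 11 other inducible GTPases tested were called higher (median 5.52; Gbp10 8.52, Gbp8 7.49, Tgtp2 6.65). Of the other interferon-stimulated genes 37 of 45 tested were higher (median 2.70), led by Oas3 at 6.50, Mnda at 6.37 and Ifi204 at 5.49. All 6 other chemokines tested were higher, with Cxcl9, which shares the receptor of Cxcl10, at 8.88, Ccl5 at 6.53 and Ccl2 at 6.44. Class II genes, which present peptides to helper T cells, were higher in 11 of 11 (median 4.16; H2-Aa 7.79), and other class I genes in 12 of 16 (H2-Q4 5.43). None of these lists had a gene called lower.

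Of the receptor and JAK-STAT genes, the feedback inhibitors Socs1 (3.24) and Socs3 (2.63) were called higher. The receptor chains Ifnar1, Ifnar2, Ifngr1 and Ifngr2 were not called, with 0.17, 0.54, 0.41 and 0.04. Among 14 sensing and induction genes 9 were higher, led by Zbp1 (6.92). Of the 17 interferon genes none had enough counts to be tested in this comparison. Interferon gamma (Ifng) had 0 counts over the 4 WT bulk libraries, 66 over the SAPAP3 WT inputs and 70 over the neuron cohort inputs. Interferon beta (Ifnb1) had at most 3 counts in any of the 40 libraries.

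Some markers of immune cells were also called higher than in bulk. In the SAPAP3 WT inputs against WT bulk, 9 of 10 T and NK cell markers were called higher (median 6.62), and their summed level ran from 29.3 to 65.2 CPM in bulk and from 48.4 to 101 CPM in the inputs. These summed ranges overlapped, and the sum was at 51.0 to 66.7 CPM in the neuron IPs. It is therefore not read as a level of T and NK cells. All 5 B and plasma cell markers were higher (summed 0.366 to 0.571 and 15.7 to 182 CPM). Of the microglial markers 5 of 10 were higher (summed 479.6 to 592 and 809.9 to 1658 CPM), and of 8 tested monocyte and border macrophage markers 4 were (summed 10.2 to 12.8 and 34.7 to 93.5 CPM, with S100a9 at 0 in the inputs). Astrocyte markers were higher in 1 of 10, Gfap, and neuron and endothelial markers in none. Their part in the members' differences was not tested. In the astrocyte IP 10 of 10 microglial markers, 2 of 2 tested B and plasma cell markers and 3 of 5 tested T and NK cell markers were called lower. The summed microglial level was 913 to 1131 CPM in the inputs and 52.4 to 60.1 CPM in the IPs, that of B and plasma cell markers 27.7 to 47.4 and 0.325 to 1.01 CPM, and Cd3e was at 0 in the IPs.

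Against their own inputs, 35 of 39 members were called higher in the astrocyte IPs, where 13.4% of all 15476 genes tested were. Their median log2 fold change was 1.68, against -0.02 for all genes. Stat2 (0.89), Nlrc5 (0.60), Mx1 (0.24) and Irf7 (-0.10) were not called, and none was called lower. In the neuron IPs no member was called higher than in the inputs (0.42% of all genes), 1 was called lower, where 15.8% of all 16198 genes were called lower, and the median was 0.09. That member was Irf7 (-1.29 ± 0.39 SE, adjusted p = 0.0126). Trim25, at 14.1, 11.4, 6.86 and 11.8 CPM in the inputs and 6.36, 4.60, 3.92 and 6.25 CPM in the IPs, did not overlap between them but missed the fold limit (-0.86 ± 0.22 SE, adjusted p = 0.00467). An unadjusted p under 0.05 was reached by 3 members in the neuron cohort (73.5% of all genes), and limma-voom and DESeq2 also called 0 higher and 1 lower. With scaling to ribosomal protein genes, which moved the median of all genes by 0.44, 5 members were called higher and 0 lower (6.65% and 10.8% of all genes), and without neuron IP replicate 3 there were 2 higher and 1 lower (0.548% and 15.9% of all genes). With the replicate number as a block the calls past the fold limit stayed at 0 higher and 1 lower, but 29 members, 17 of them higher and 12 lower, had an unadjusted p under 0.05 (80.6% of all genes), and the same 29 had an adjusted p under 0.05.

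The GTPases had the largest median in the astrocyte IP (2.54), from 1.99 for Irgm1 to 2.86 for Gbp2. Gbp2 was at 42.5, 26.0, 38.4 and 72.9 CPM in the astrocyte cohort inputs and at 257, 137, 258 and 459 CPM in the IPs (2.86 ± 0.37 SE, adjusted p = 2.21e-05). The groups did not overlap, and replicate 2 was lowest and replicate 4 highest in both. In the neuron cohort it was at 109.7, 67.3, 20.9 and 89.1 CPM in the inputs and 172, 115, 36.5 and 156 CPM in the IPs (0.94 ± 0.51 SE, adjusted p = 0.126, and 0.96, adjusted p = 1.32e-11, with the replicate block), ranges that overlapped. Gbp2 passed the limits without neuron IP replicate 3, the lowest, at 1.25, and with ribosomal scaling at 1.41. Igtp was at 47.3, 24.6, 46.4 and 76.8 CPM in the astrocyte inputs and 229.9, 136, 261 and 368 CPM in the IPs (2.58 ± 0.34 SE), and its neuron IP value was 0.54 ± 0.44 SE.

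Ifit3, with 2.71 ± 0.40 SE, had the largest difference of the antiviral effectors in the astrocyte IP, followed by Ifi44 (2.67) and Oasl2 (2.13). Ifit3 was at 77.7, 36.1, 44.7 and 119.7 CPM in the inputs and 419.9, 213, 286 and 633 CPM in the IPs, with no overlap. Mx1, in contrast, was at 6.84, 3.35, 3.60 and 17.4 CPM in the inputs and at 6.81, 3.41, 3.78 and 17.1 CPM in the IPs, which overlapped in full. Its log2 fold change of 0.24 ± 0.59 SE became -0.47 without IP replicate 4 and 0.99 without input replicate 4. Ifi27 was at 40.3, 31.2, 37.5 and 39.6 CPM in the inputs and 109, 96.2, 102 and 111 CPM in the IPs, with the smallest standard error of the members (1.72 ± 0.08 SE, adjusted p = 2.14e-09).

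In antigen presentation 8 of 9 genes were called higher in the astrocyte IP, all but Nlrc5. Tap2 led (2.21 ± 0.22 SE), and B2m was at 275, 193, 274 and 360.4 CPM in the inputs and 589, 417, 704 and 737 CPM in the IPs (1.37 ± 0.19 SE, adjusted p = 4.68e-05). The B2m ranges did not overlap there. In the neuron cohort B2m was at 546, 436, 211 and 455 CPM in the inputs and 317, 293, 133 and 278 CPM in the IPs (-0.49 ± 0.30 SE, adjusted p = 0.169, and -0.48, adjusted p = 9.13e-09, with the replicate block), with overlap. The heavy chains H2-K1 and H2-D1 were at 1.60 and 1.58 in the astrocyte IP and at -0.24 and -0.14 in the neuron IP. Irf7 stood at 38.2, 26.0, 10.2 and 27.8 CPM in the neuron inputs and 11.9, 9.22, 4.08 and 11.2 CPM in the neuron IPs. With scaling to ribosomal protein genes, which moved the median of all genes in the astrocyte IP by 1.18, Irf7 in that IP turned from -0.10 to 1.09.

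The difference between the astrocyte and the neuron enrichment was tested as an interaction over the 16 libraries of both cohorts. It was positive for 39 of 39 members, with a median of 1.83 against -0.02 for all genes, and 32 members were called, where 34.3% of all 16371 genes were called in that direction. The largest values were those of Trim25 (2.47 ± 0.34 SE, adjusted p = 5.62e-06), a ubiquitin ligase that acts on Ddx58, and Gbp3 (2.30 ± 0.43 SE, adjusted p = 0.000152). Psmb9, Oasl2, Irf7, Ifit1, Irf9, Mx1 and Isg15 were not called, with 0.36 to 1.45. With the replicate number as a block all 39 were called (36.8% of all genes), and these 7 had values of 0.36 to 1.49 there. The cohorts also differed in promoter and in depth, which cannot be told apart from the cell type. Gapdh was at 608 to 660 CPM in the astrocyte cohort inputs and 5.23 to 5.94 CPM in the neuron cohort inputs. In the IPs it was at 919 to 995 and 2.49 to 3.42 CPM. Whether reads were counted alike in both cohorts was not tested.

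**Figure D3:**
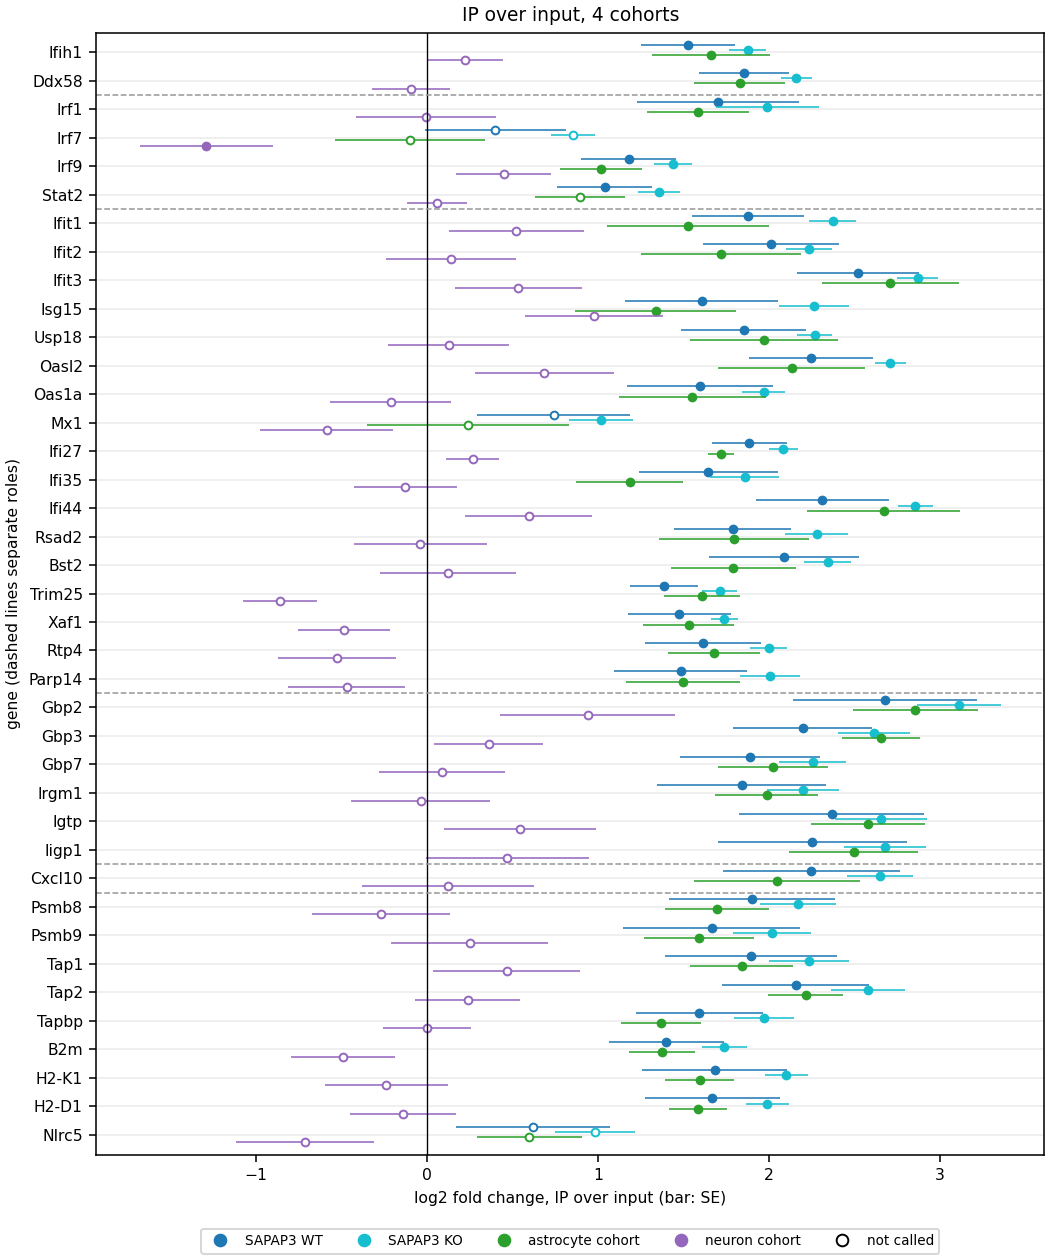
Log2 fold change of IP over input for the 39 members, by role, in the astrocyte, SAPAP3 WT, SAPAP3 KO and neuron cohorts. Points are edgeR estimates (open where not called) and bars are 1 standard error; the neuron IP values lie between -1.29 and 0.97, and the astrocyte IP values between -0.10 and 2.86, where Irf7 is above 0 with scaling to ribosomal protein genes.

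In the SAPAP3 cohort IPs, 36 of 39 members were called higher than in the inputs in WT (10.9% of all genes) and 37 of 39 in KO (12.3% of all genes), with medians of 1.79 and 2.16. Igtp was at 736, 1239, 310.3 and 1125 CPM in the WT IPs and 1079, 1071, 636 and 927 CPM in the KO IPs. Those are 2.37 ± 0.54 SE and 2.66 ± 0.27 SE above the inputs on the log2 scale. Cxcl10 was at 67.6, 164, 39.7 and 117 CPM in the WT IPs and 108, 93.3, 69.1 and 79.6 CPM in the KO IPs (2.25 ± 0.52 SE and 2.65 ± 0.19 SE). Gbp2 had the largest difference of the members in both genotypes (2.68 and 3.11). Mx1, Nlrc5 and Irf7 were not called in WT (0.40 to 0.74), and Nlrc5 (0.98) and Irf7 (0.85) were not in KO. With the animal as a block Nlrc5 passed the limits in KO (1.01, adjusted p = 2.30e-06, edgeR).

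Within the pathway lists, 10 of 11 other inducible GTPases, 18 of 46 other interferon-stimulated genes and 7 of 16 other class I genes were called higher in the astrocyte IP. Of all 15476 genes tested there, 13.4% were called higher and 2085 genes lower. In the same IP 8 of the other interferon-stimulated genes were lower, led by Phf11b (-3.08) and Slfn5 (-2.86). Of the chemokines Ccl12 (-5.54), Ccl5 (-2.39) and Cxcl16 (-2.10) were lower and 1 was higher. Class II genes were lower in 5 of 11 and higher in none, with H2-Oa at -4.98, H2-Ob at -4.71 and Ifi30 at -2.09. In the neuron IP, 0 of 11 other GTPases were called in either direction. There 16 of 46 other interferon-stimulated genes, 5 of 7 chemokines and 8 of 11 class II genes were lower, against 15.8% of all genes tested.

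The genotypes were compared with no fold limit. Dlgap3 was at 514, 395, 376 and 399.9 CPM in the SAPAP3 WT inputs and 200.03, 188, 166 and 166 CPM in the KO inputs, a log2 fold change of -1.19 ± 0.10 SE, adjusted p = 0.00698 by edgeR. Leaving out 1 input library gave -1.10 to -1.25, and the call was lost without KO input replicate 2, 3 or 4 (adjusted p = 0.0531, 0.0631 and 0.0641). It was at 212, 154, 157 and 179 CPM in the WT IPs and 87.2, 68.3, 49.8 and 56.7 CPM in the KO IPs (-1.40 ± 0.17 SE, adjusted p = 0.0283). Leaving out 1 IP library gave -1.29 to -1.57, and the call was lost in 7 of these 8 fits (adjusted p = 0.0741 to 0.169) and kept without KO IP replicate 1 (0.0204). It was also lost with the FPKM filter (0.0558) and without the genes near Dlgap3 (0.112). In bulk it was at 376, 385, 338 and 232 CPM in WT and 161, 153, 154 and 144 CPM in KO (-1.14 ± 0.14 SE, adjusted p = 0.318), which edgeR did not call and DESeq2 did (adjusted p = 3.13e-10). Without WT bulk replicate 4, the lowest of the WT libraries, edgeR called it too (-1.28, adjusted p = 0.00105). Every KO library was below every WT library in the inputs, in the IPs and in bulk, and Dlgap3 reads remained in each KO library.

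No member was called between KO and WT in the inputs, in the IPs or in bulk, where 0.00641%, 0.0263% and 0% of all genes tested were called by edgeR. At an unadjusted p under 0.05 there were 0, 0 and 1 members, the last being Tap2 in bulk (0.31 ± 0.12 SE, adjusted p = 0.984), and limma-voom and DESeq2 also called 0 members in each. In the inputs all 39 values were below 0, with a median of -0.24 against -0.00173 for all genes, from -0.58 (Isg15) to -0.06 (Trim25). With scaling to ribosomal protein genes 38 of 39 were below 0, without WT input replicate 2 there were 27 (median -0.05), without KO input replicate 3 there were 34 (median -0.11), and without WT input replicate 3 all 39 were (median -0.50). In the IPs 32 of 39 were above 0 with a median of 0.06, and in bulk 18 of 39 with a median of -0.01. These directions rested on single libraries: without WT IP replicate 3, 36 of 39 IP values were below 0 (median -0.14), and without WT IP replicate 2 there were 0 (median 0.27). In bulk 3 of 39 were below 0 without WT replicate 3 (median 0.19) and 32 without KO replicate 2 (median -0.19). The difference of the genotype effect between IPs and inputs was above 0 for 39 of 39 members (median 0.31) and called for none (0% of all genes; 0 members at an unadjusted p under 0.05). Without WT IP replicate 3 it was below 0 for 6 members (median 0.10) and without WT input replicate 2 for 2 (median 0.16). The difference between inputs and bulk was called for none (0% of all genes; 0 members at an unadjusted p under 0.05).

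Cxcl10 was at 21.9, 15.1, 11.4 and 15.8 CPM in the KO inputs, inside the range of the WT inputs (-0.48 ± 0.39 SE). Isg15 was at 14.7, 13.8, 3.11 and 8.95 CPM in the WT and 9.82, 5.12, 5.58 and 5.69 CPM in the KO inputs, with the KO values again within the WT range (-0.58 ± 0.41 SE). Igtp had 242, 160.0, 91.7 and 185 CPM in the KO inputs (-0.10 ± 0.45 SE), also within it. In bulk the genotype difference of the weakly expressed members depended on single libraries. Cxcl10 in bulk moved from -0.47 to 1.20 without WT replicate 3 and to -1.70 without KO replicate 2. Oasl2 moved from -0.79 to 0.41 and -1.72. In all, 9 members moved by over 1.5 times in fold without WT replicate 3 and 4 without KO replicate 2.

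**Figure D4:**
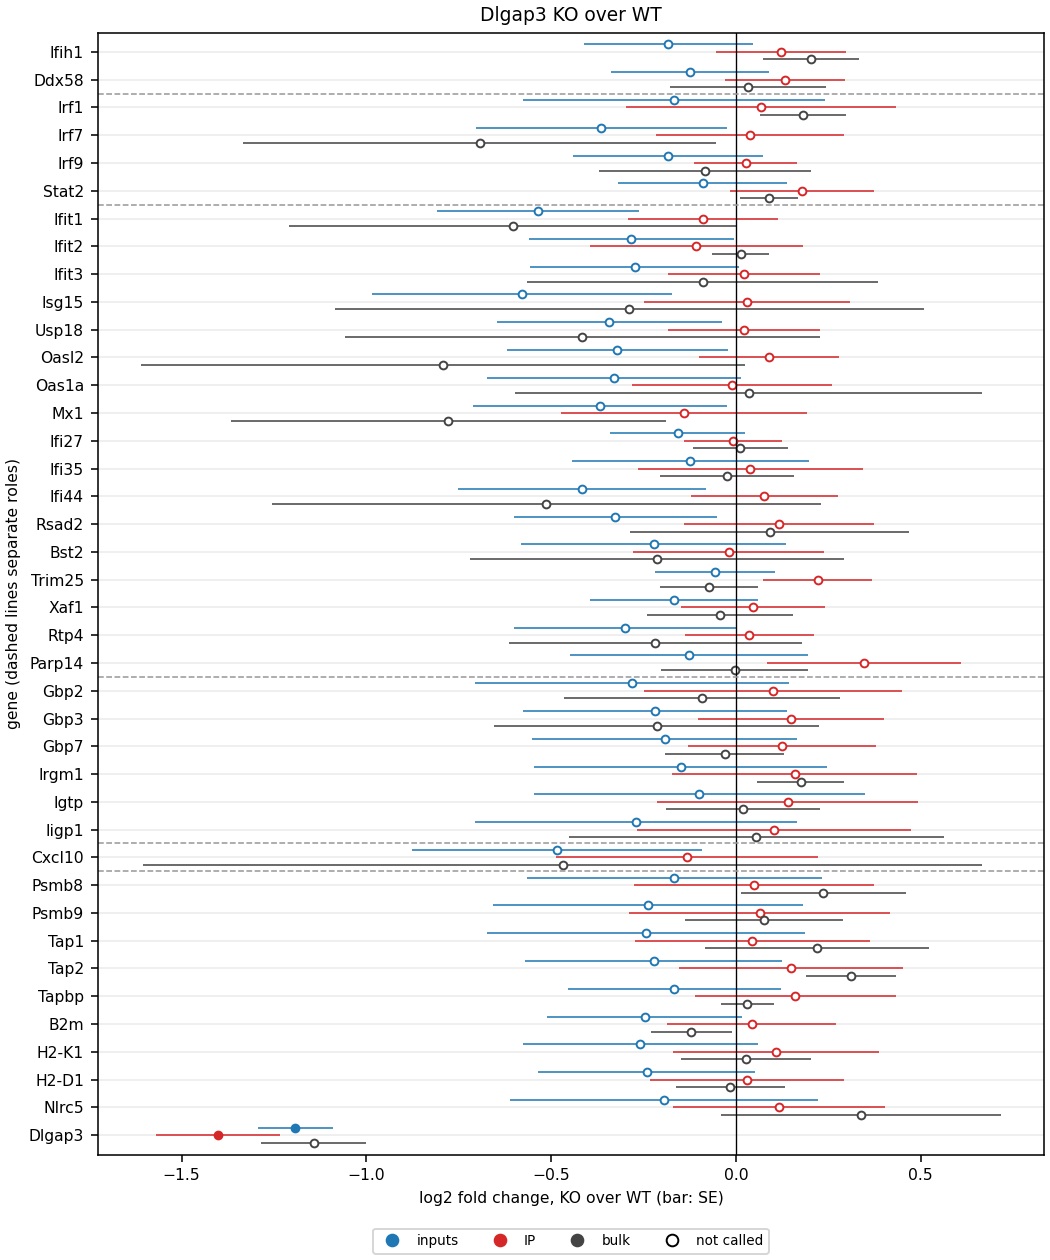
Log2 fold change of SAPAP3 KO over WT for the 39 members and Dlgap3 in the inputs, the IPs and bulk striatum. Points are edgeR estimates (open where not called) and bars are 1 standard error; Dlgap3 lies at -1.19, -1.40 and -1.14, and the members lie between -0.79 and 0.35.

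The members varied together between mice of a group. In the astrocyte cohort replicate 4 was the highest of the 4 inputs for 38 of 39 members and replicate 2 the lowest for 39 of 39, and the IPs of the same mice were the highest and the lowest for 39 of 39. In the SAPAP3 WT mice replicate 3 was the lowest for 39 of 39 members both in the inputs and in the IPs, and replicate 2 was the highest for 25 and 34. In the neuron cohort replicate 1 was the highest input for 39 of 39 and replicate 3 the lowest for 39 of 39, and IP replicate 3 was the lowest for 39 of 39. Among the genes expressed in these groups, these libraries were the highest or the lowest, respectively, for 21.6% to 42.8%. Among the SAPAP3 KO inputs replicate 1 was the highest for 35 members and replicate 3 the lowest for 28 (19.7% and 23.2% of all expressed genes). The KO IPs had the same replicates for 22 and 23 members (29.3% and 28.3%).

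The ratio of the highest to the lowest library of a group had a median over the members of 2.85 in the astrocyte cohort inputs, 3.48 in the SAPAP3 WT inputs and 3.37 in the neuron cohort inputs, against 1.13, 1.23 and 1.14 over all expressed genes. In the SAPAP3 KO inputs it was 1.60 and in WT bulk 1.80, against 1.17 and 1.27 over all expressed genes. Expressed genes have a mean of at least 1 CPM in the group, which 31 of the 39 members had in WT bulk. The WT bulk median of the members leaves out Cxcl10, which was at 0 CPM in 1 library. Within bulk, WT replicate 3 was the highest for 33 members and KO replicate 2 for 34. Isg15 ranged over 37.8-fold in WT bulk, at 0.0266, 0.310, 1.01 and 0.154 CPM, whereas Stat2 ranged over 1.10-fold.

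Marker sums of the same libraries are given beside this spread. In the SAPAP3 WT inputs, replicates 1 to 4 had summed microglial levels of 1658, 1269.6, 809.9 and 1417 CPM and summed B and plasma cell levels of 110.5, 15.7, 50.5 and 182 CPM. Replicate 3, lowest for all members, had the lowest microglial sum, and replicate 2, highest for most of them, had the lowest B and plasma cell sum. In the astrocyte cohort inputs the microglial sums were 1026, 913, 1027 and 1131 CPM, and in the neuron cohort inputs 1193, 1051, 752 and 1016 CPM. The astrocyte marker sums of the astrocyte cohort inputs stayed between 3779 to 3936 CPM. Rpl22, which the virus carries, was at 71.1, 74.4, 68.7 and 66.7 CPM in WT bulk and at 193, 238, 122 and 147 CPM in the SAPAP3 WT, 437, 355.9, 342 and 491 CPM in the astrocyte and 1006, 935, 768 and 1127 CPM in the neuron cohort inputs. The part of cells, of virus dose and of the library in the spread was not tested.

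Without SAPAP3 WT input replicate 3 all 39 members were still called higher than bulk, and leaving out any other single library of that comparison gave 39 as well. Mouse by mouse and in CPM, the astrocyte IP was above its own input for 37 to 38 of 39 members, the SAPAP3 IPs for 37 to 39, and the neuron IP above the input of the same number for 11 to 17. Irf7 had the lowest IP-to-input ratio of the members in 15 of these 16 pairs, and Nlrc5 in the other.

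**Figure D5:**
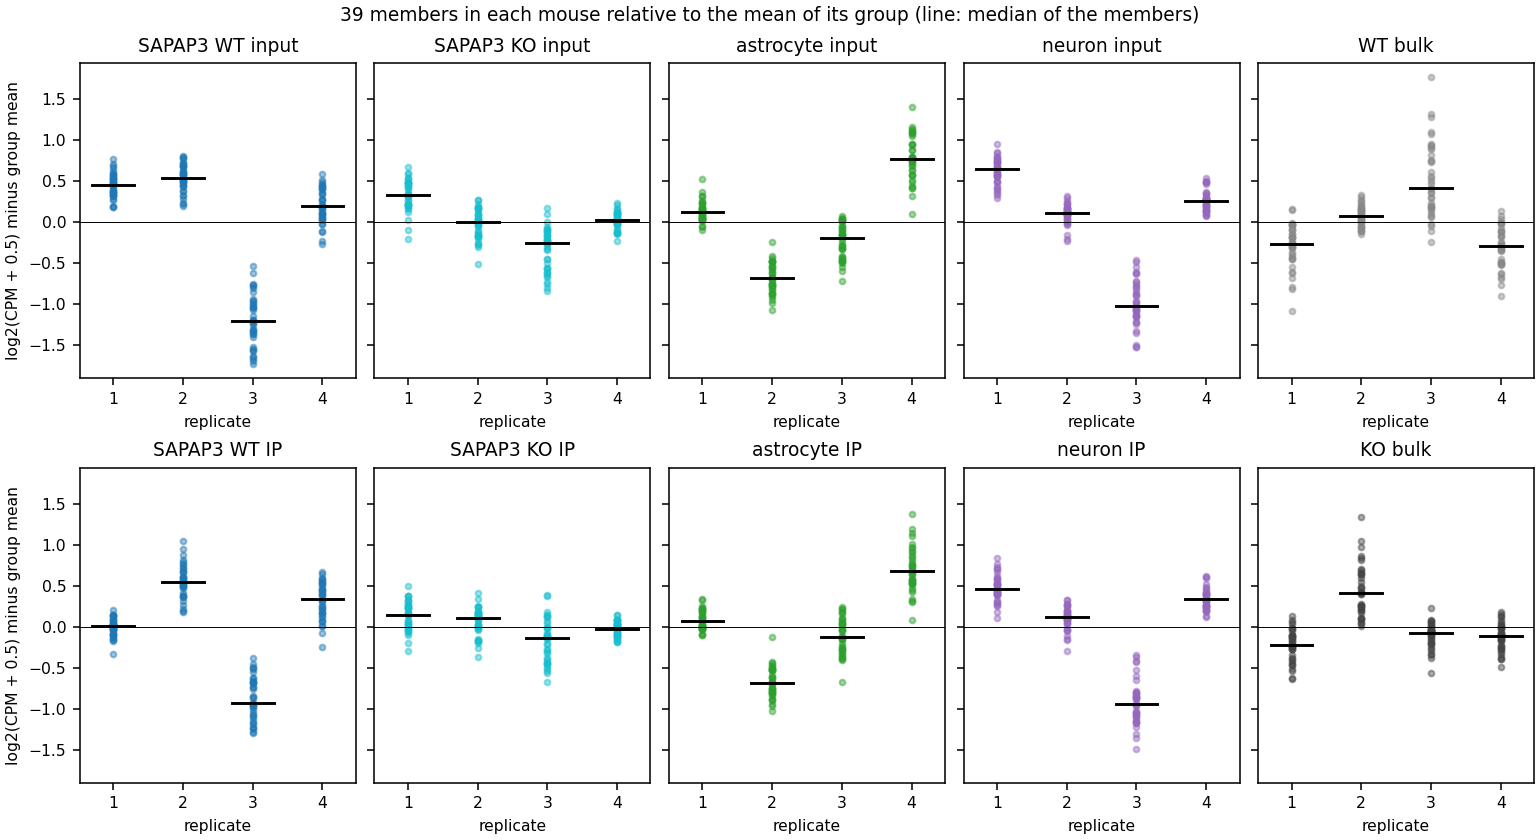
Level of each of the 39 members in each library relative to the mean of its group, as log2(CPM + 0.5), by replicate number, with inputs in the top row, IPs in the bottom row and bulk striatum in the right column. Each point is 1 member and the bar is the median of the members. All 39 are lowest in replicate 2 of the astrocyte cohort, replicate 3 of the SAPAP3 WT mice and replicate 3 of the neuron cohort, in inputs and IPs alike.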

How the data were processed

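Striatal RNA of 10 groups of 4 libraries was sequenced, and the authors deposited raw gene-level counts, which were used as deposited. Reads were aligned to mm10 with STAR, and HTSeq is listed in the submitters' processing notes. The labels name a stranded TruSeq RiboZero kit and the study's methods another kit, so how strand was counted is not settled here. The FPKM filter and limma-voom used in the study were run as alternatives. Columns of the table map to samples by title. The members and lists were chosen with earlier results of these data known.

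Counts were filtered with filterByExpr, scaled by TMM and tested with edgeR 4.0.16 (glmQLFit, glmQLFTest) in R 4.3.3 over all genes, with Benjamini-Hochberg adjustment. Comparisons of IP, input and bulk required an adjusted p under 0.05 and a log2 fold change above 1 or below -1, and genotype comparisons and interactions the adjusted p only. The scripts were tested on simulated data. Alternatives were limma-voom (limma 3.58.1), DESeq2 1.42.0, no filter, FPKM above 5 in at least 4 libraries, scaling to 75 ribosomal protein genes, Xist as a covariate, both genotypes in one fit, a fold limit, leaving out genes within 20 Mb of Dlgap3, a replicate block and leaving out each library. FPKM used exon lengths of the reference annotation, found for 99.2% of symbols. Near copies were sought with minimap2 2.31-r1302. Full statistics are given for at most 10 members per comparison by size, and values per library for members of each role. Other genes are up to 3 per list and the receptors, and some genes of the lists are not reported here. No correlation across mice was computed. Samples of a group are taken as separate animals as labelled, and p-values measure the spread between them. The deviations from group means of same-numbered input and IP correlated at r = 0.258 to 0.585 (astrocyte cohort), 0.483 to 0.791 (neuron cohort), 0.516 to 0.696 (SAPAP3 WT) and 0.438 to 0.621 (SAPAP3 KO), above 0.1 in every pair. Pairs rest on labelled animal numbers, except for the neuron cohort, where only title numbers match. Depth was 23438112 to 84109800 counts per library.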

Additional observations from a re-analysis of the deposited data

Results flagged for a closer look

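Of 374 sets of 4 libraries examined, 13 (3.48%) had 1 library so far from the others that its gap passed Dixon's 95% critical value, and chance alone flags about 1 in 20. In the group KO bulk striatum the highest library stood apart from the other libraries of the group for Oasl2 at 4.64 CPM against 0.875 to 1.12, Rsad2 at 2.25 CPM against 1.11 to 1.25, Rtp4 at 2.29 CPM against 0.999 to 1.03 and Parp14 at 4.61 CPM against 2.92 to 3.00. In the group KO bulk striatum the lowest library stood apart from the other libraries of the group for Irf1 at 3.18 CPM against 3.88 to 4.01. In the group SAPAP3 cohort KO IP the highest library stood apart from the other libraries of the group for Ifit1 at 219 CPM against 148 to 158. In the group SAPAP3 cohort KO IP the lowest library stood apart from the other libraries of the group for Psmb9 at 38.9 CPM against 63.8 to 68.1. In the group SAPAP3 cohort KO input the highest library stood apart from the other libraries of the group for Isg15 at 9.82 CPM against 5.12 to 5.69 and Mx1 at 7.93 CPM against 4.89 to 5.04. In the group SAPAP3 cohort WT IP the lowest library stood apart from the other libraries of the group for Irf9 at 62.5 CPM against 96.5 to 102. In the group SAPAP3 cohort WT input the lowest library stood apart from the other libraries of the group for Psmb8 at 12.7 CPM against 51.3 to 58.2. In the group WT bulk striatum the highest library stood apart from the other libraries of the group for Bst2 at 3.58 CPM against 0.879 to 1.24 and Rtp4 at 2.74 CPM against 1.03 to 1.29.

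The enrichment in the IP differed between the astrocyte and the neuron cohort for 32 members, tested as an interaction over both cohorts with edgeR, with Benjamini-Hochberg adjustment over all genes. Of all 16371 genes tested, 34.3% were called in the same direction, with the larger value in the astrocyte cohort. The differences in log2 fold change, astrocyte minus neuron, were Trim25 2.47, Gbp3 2.30, Rtp4 2.21, Ifit3 2.18, Ifi44 2.08, Igtp 2.04, Iigp1 2.03, Irgm1 2.02, Xaf1 2.02, Tap2 1.98, Parp14 1.97, Psmb8 1.96, Gbp7 1.94, Ddx58 1.92, Cxcl10 1.92, Gbp2 1.92, B2m 1.87, Usp18 1.84, H2-K1 1.83, Rsad2 1.83, Oas1a 1.77, H2-D1 1.72, Bst2 1.67, Irf1 1.59, Ifit2 1.58, Ifi27 1.45, Ifih1 1.44, Tap1 1.37, Tapbp 1.37, Ifi35 1.31, Nlrc5 1.31 and Stat2 0.84.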

How the results depend on the processing

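The number of members called was within 1.5 times of that reported under 76 of 82 other settings and 133 of 136 fits without 1 library. Genotype comparisons and genotype interactions, in which no member was called, count as within where again none was called. For these comparisons an added fold limit could give no other outcome. With ribosomal scaling the number of members called was 5 in place of 1 in the neuron IP, where leaving out 1 library gave 1 to 3. It was 21 in the astrocyte cohort inputs over bulk. With FPKM above 5 in at least 4 libraries it was 24, 19 and 16 for the SAPAP3 WT, astrocyte and neuron inputs over bulk, which were all the members still tested, and with Xist as a covariate 25 for the neuron inputs. Ribosomal scaling moved the median of all genes by 1.18, 0.44, 0.71 and 0.60 in the astrocyte, neuron, SAPAP3 WT and SAPAP3 KO IPs, by 0.15 in the SAPAP3 KO inputs over KO bulk and by -1.78 in the astrocyte cohort inputs over bulk. Under it Irf7 in the astrocyte IP turned to 1.09, and in the astrocyte cohort inputs Erap1 (-1.23), Ifi27 (-0.52), Ifih1 (-0.24), Ifit2 (-0.54), Ifnar1 (-1.76), Ifnar2 (-1.45), Ifngr1 (-1.38), Irf5 (-0.59), Socs3 (-0.25), Stat2 (-0.49), Tapbp (-0.21), Tlr7 (-1.72), Tlr9 (-1.31), Trim25 (-0.14) and Xaf1 (-0.25) turned negative. Relative to the median of all genes no member was negative there. Leaving out 1 library gave 32 to 36 members in the astrocyte IP, 34 to 36 and 36 to 38 in the SAPAP3 WT and KO IPs, 38 to 39 and 37 to 39 in the astrocyte and neuron inputs over bulk, and 23 to 35 for the difference between astrocyte and neuron enrichment. With the replicate block that difference was called for 39 members in place of 32, Nlrc5 was called in the SAPAP3 KO IP, and no other call of a member past its limits changed. Isg15, Oas1a, Mx1 and Cxcl10 had under 10 counts in at least 1 WT bulk library, so their folds over bulk rest on few counts.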

Other observations

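Ifng was called lower in the neuron IP than in its input (-3.25 ± 0.68 SE, adjusted p = 0.00150, edgeR), from 70 counts over the inputs and 9 over the IPs. The class II gene H2-Aa averaged 0.515 ± 0.0999 CPM (SD, n = 4) in WT bulk, 119 ± 71.3 in the SAPAP3 WT inputs and 52.1 ± 33.3 in the SAPAP3 WT IPs. Its invariant chain Cd74 averaged 1.74 ± 0.538, 258 ± 159 and 129 ± 89.7 CPM.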
